A study of Mus musculus with 36 samples.

Results

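Cyp1a2 and 5 genes of the aryl hydrocarbon receptor pathway were followed in mouse liver on 3 diets. They were taken by gene symbol as a fixed group of 6 genes out of 53715 gene identifiers in the count table: the enzymes Cyp1a2 and Cyp1a1, the receptor Ahr, its partner Arnt, and Tiparp and Ahrr, which the receptor induces and which repress it in turn. They were chosen by name, with earlier results of these data known, and 5 of the 6 had enough counts to be tested. All mice were C57BL/6 males of 10 weeks, and their liver RNA was sequenced. From the age of 4 weeks they had eaten for 6 weeks either AIN93G, a purified rodent diet (Control), AIN93G with 10% red tomato powder (Red), or AIN93G with 10% tangerine tomato powder (Tangerine). The powders are whole foods, so the parts of a powder cannot be told apart. The 12 libraries of a diet all carry different numbers, and each library was taken as 1 mouse, although the labels' range of mice in a group starts below 12.

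The aryl hydrocarbon receptor is a ligand-activated transcription factor that waits in the cytosol bound to chaperones. On binding a flat aromatic ligand, such as a dioxin, a plant indole or a product of tryptophan, it moves to the nucleus and pairs with ARNT. The pair then binds short DNA elements whose core reads GCGTG. Cyp1a1 is the gene most often used as its readout, while Cyp1a2 is made in hepatocytes around the central vein even without an added ligand, and oxidises caffeine, aromatic amines and other substrates. TIPARP and AHRR close a feedback loop, since the receptor induces both and both repress it.

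Total counts ran from 21290169 to 33810573 per library, and the hepatocyte markers, all 7 of 7 detected, summed to between 92610 and 137000 CPM, which are read counts scaled to the size of the library. Libraries stood apart in traces of other tissue: the library of mouse 186 on Red held 4020 counts of 7 T and B cell markers, against at most 103 in the other Red libraries, and that of mouse 216 on Tangerine held 258 counts of 7 exocrine pancreas markers, against at most 2 in the other Tangerine libraries. Mouse 192 on Tangerine had 3018 counts of 5 cholangiocyte markers, against at most 716 in that diet's other libraries. Spp1 made up 2917 of the 3018, and the other markers of that list reached at most 3.42 CPM (Sox9) on Tangerine. The excess of mouse 192 therefore lay in a single gene and is not shown to be other tissue. All libraries were kept, and values without mice 186 and 216 are given beside the Cyp1a2 results. A clock score, the first principal component of 10 circadian clock genes, also differed between the diets. It was -2.24 ± 1.90 (SD, n = 12) on Red, 0.66 ± 2.39 (SD, n = 12) on Control and 1.57 ± 1.98 (SD, n = 12) on Tangerine, where high values go with high Dbp, a clock output gene. The difference between Tangerine and Red was 3.81 (two-sided permutation test with 100000 resamples, p = 8e-05, adjusted over 3 comparisons 0.00024).

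Cyp1a2 and Cyp1a1 lie head to head on chromosome 9, and their RefSeq starts are 13957 bases apart. Cyp1a2 (ENSMUSG00000032310.4) spans chr9:57676937-57683703 on the minus strand and Cyp1a1 (ENSMUSG00000032315.6) spans chr9:57687928-57703824 on the plus strand, in GENCODE release M21 on GRCm38. Ahr (ENSMUSG00000019256.17) lies at chr12:35497974-35535038, Arnt (ENSMUSG00000015522.18) at chr3:95434388-95497240, Tiparp (ENSMUSG00000034640.9) at chr3:65528410-65555518 and Ahrr (ENSMUSG00000021575.16) at chr13:74211118-74292331. All 6 are protein-coding genes. RefSeq (GRCm38.p6) gave a promoter for 5 of the 6. The sequences upstream of the start are printed for the target genes, since these are the genes the receptor is known to induce. They run 5′ to 3′ on the gene's strand and leave out bases that the annotation counts as exon of the gene, and capitals mark the core GCGTG or its reverse complement CACGC.
Cyp1a2, chr9:57683704-57683905, minus strand: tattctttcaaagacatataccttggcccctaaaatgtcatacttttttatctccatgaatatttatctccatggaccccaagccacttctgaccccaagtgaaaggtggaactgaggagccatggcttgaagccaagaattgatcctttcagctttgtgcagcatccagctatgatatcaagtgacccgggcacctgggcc
Cyp1a1, chr9:57697363-57697612, plus strand: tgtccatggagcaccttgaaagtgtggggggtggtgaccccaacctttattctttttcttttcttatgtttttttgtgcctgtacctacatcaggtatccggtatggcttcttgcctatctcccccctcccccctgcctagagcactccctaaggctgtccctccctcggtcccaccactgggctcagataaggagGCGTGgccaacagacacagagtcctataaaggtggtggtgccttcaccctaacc
Tiparp, chr3:65528197-65528409, plus strand: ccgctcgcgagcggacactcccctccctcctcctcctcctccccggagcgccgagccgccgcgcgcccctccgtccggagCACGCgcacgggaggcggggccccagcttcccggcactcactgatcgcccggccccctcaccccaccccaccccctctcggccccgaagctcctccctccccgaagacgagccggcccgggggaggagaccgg
Ahrr, chr13:74292332-74292581, minus strand: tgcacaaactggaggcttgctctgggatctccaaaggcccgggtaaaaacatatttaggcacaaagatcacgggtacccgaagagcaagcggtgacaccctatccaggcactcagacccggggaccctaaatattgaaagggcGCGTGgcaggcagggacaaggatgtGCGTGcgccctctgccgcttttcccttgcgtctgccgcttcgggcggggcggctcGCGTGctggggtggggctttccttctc
The Cyp1a2 stretch of 202 bases held no GCGTG on either strand, the Cyp1a1 stretch held 1 and the Tiparp stretch held 1, on the minus strand. The Ahrr stretch held 3, and the last of them, 27 to 23 bases before the start, also fitted the longer form TNGCGTG, which contains the core. The Arnt stretch of 248 bases, not printed, held 1 core 29 to 25 bases before its start. Of 32851 RefSeq promoters of 250 bases, 28.16% held GCGTG on either strand and 4.1% held TNGCGTG, so a single core is common in windows of this length. The match describes the letters in these windows only.

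Cyp1a2 was higher in livers of mice fed Tangerine than in either of the other diets. On Control its level ran from 284.1 CPM through a median of 390.8 to 526.9 CPM. On Red it ran from 294.9 through 424.0 to 528.9 CPM, nearly the same span. On Tangerine it ran from 432.1 through 596.4 to 725.8 CPM. All 12 Tangerine libraries were above the Control median and above the Red median, and 10 of the 12 were above every Control library and 10 above every Red library. The 2 Tangerine libraries inside the Control span were those of mice 160 (432.1 CPM) and 128 (437.0 CPM).

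The Tangerine mean of Cyp1a2, 582.9 ± 84.1 CPM (SD, n = 12), compares with 400.8 ± 70.9 (SD, n = 12) for Control and 430.6 ± 70.6 (SD, n = 12) for Red. Cyp1a2 rose on Tangerine against Control by 0.54 on the log2 scale (SE 0.0953, 95% interval 0.35 to 0.73, 1.45-fold), with an adjusted p of 0.0115 in edgeR's quasi-likelihood test with Benjamini-Hochberg adjustment over all genes tested. It was 1 of the 5 members tested that passed, where 0.0142% of all 14068 genes tested passed. That share is 2 genes, and the other was Cyp2c29, another cytochrome P450 (log2 difference 0.57, adjusted p = 0.00476 in the same edgeR test). In whole liver, more RNA per cell and more of the cells that make Cyp1a2 cannot be told apart, and the same holds for lower levels.

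Against Red, Cyp1a2 rose on Tangerine by 0.44 (SE 0.0952, 95% interval 0.24 to 0.63, 1.35-fold, adjusted p = 0.0155, edgeR quasi-likelihood with Benjamini-Hochberg adjustment). Here too 1 of 5 members passed, and 1.71% of all genes tested did (0.732% higher and 0.981% lower). Without the libraries of mice 186 and 216, an alternative chosen after seeing the data, the differences were 0.54 against Control (adjusted p = 0.00779) and 0.40 against Red (adjusted p = 0.0397) in the same edgeR test. Red against Control gave a Cyp1a2 difference of 0.10 (SE 0.0951, 95% interval -0.09 to 0.30, adjusted p = 0.677 by edgeR), and 9 of 12 mice on Red exceeded the Control median. None of the 5 members passed there, where 0.149% of all genes tested did (0.0498% higher and 0.0995% lower). At an unadjusted p under 0.05 there were 1 of the 5 members in Red against Control (13.3% of all genes), 1 in Tangerine against Control (5.47% of all genes) and 3 in Tangerine against Red (15.1% of all genes). DESeq2 called none of the members in Red against Control.

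**Figure D1:**
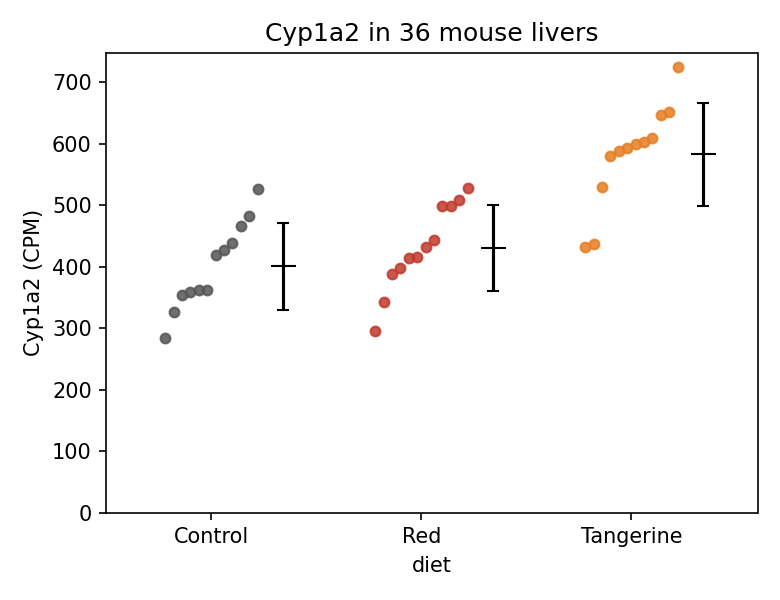
Cyp1a2 level in each liver library (points, CPM, sorted from low to high within each diet), with the mean and SD over 12 libraries per diet (bar). The Control and Red points span nearly the same range, and 10 of the 12 Tangerine points lie above every Control point.

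Cyp1a2 was also fitted with the clock score or the mouse number beside the diet. With the clock score as a covariate, the Tangerine against Red difference in Cyp1a2 was 0.26 (adjusted p = 0.368, edgeR quasi-likelihood test), while Tangerine against Control was 0.50 (adjusted p = 0.0157). Red against Control was then 0.25 (unadjusted p = 0.0241, adjusted p = 0.422, edgeR), more than the 0.10 without the score. With the mouse number as a covariate neither Cyp1a2 difference passed: 0.48 against Control (adjusted p = 0.0838) and 0.38 against Red (adjusted p = 0.0539). The numbers ran from 120 to 245 on Control (median 182.5), 133 to 204 on Red (median 176) and 128 to 242 on Tangerine (median 206.5). Mice 128 and 160, whose Cyp1a2 (437 and 432.1 CPM) lay inside the Control span, had the lowest numbers on Tangerine. The part of the mouse numbers in the result was not tested beyond these fits.

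Within a diet, Cyp1a2 and the clock score had Pearson's r of 0.628 on Control (n = 12, two-sided permutation p = 0.0314, adjusted over 24 relations 0.35; Spearman's rho 0.455), 0.142 on Red and 0.408 on Tangerine. None of these 3 passed the adjusted threshold. With the mouse number, a relation chosen after seeing the data, r was 0.341 on Control, 0.007 on Red and 0.606 on Tangerine (n = 12, permutation p = 0.0584, adjusted 0.35, rho 0.028). The last of these rested on extreme numbers, since leaving out the 2 mice farthest from the median number turned r to -0.548.

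**Figure D2:**
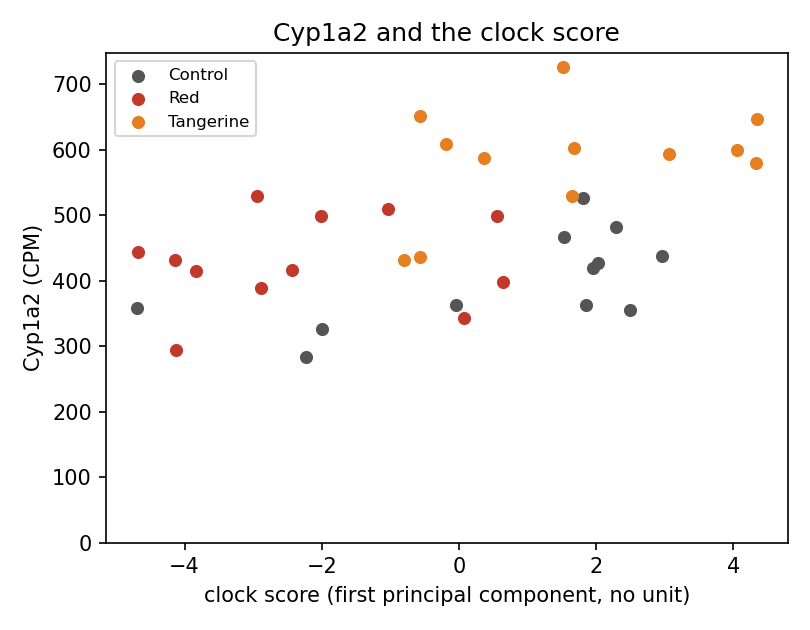
Cyp1a2 (CPM) against the clock score of each library, with 12 libraries per diet shown by colour. Red libraries lie mostly at low scores (mean -2.24) and Tangerine libraries at higher ones (mean 1.57). Within a diet the points scatter, with r, computed on log2 CPM, of 0.628 on Control, 0.142 on Red and 0.408 on Tangerine.

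Among the cytochrome P450 genes Cyp1a2 was abundant. Per length its mean level was 234.2 FPKM (CPM per kilobase of exon), the 11th highest of 70 tested P450 genes, where Cyp2e1, an ethanol and acetaminophen oxidase, came first at 2702 FPKM. Its Tangerine against Control difference was the 5th highest of the 70. The P450 genes as a group had a median difference of 0.09 there, against -0.01 for all genes tested. Of the 70, 2 passed, Cyp2c29 and Cyp1a2, where 0.0142% of all genes tested did. In Tangerine against Red 3 P450 genes were higher (Cyp1a2, Cyp2a5 and Cyp2d11) and 2 lower (Cyp4f17 and Cyp2c55). Of all genes tested, 0.732% were higher and 0.981% lower there, and with the clock score as a covariate no gene passed by edgeR. In Red against Control 2 P450 genes were higher (Cyp2c29 and Cyp4f17), where 0.0498% of all genes tested were. These P450 genes were named after their values were seen.

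Cyp1a1, the classical target and the enzyme that clears polycyclic hydrocarbons, was close to silent. It had 20 to 78 counts per library, and its level of 0.587 FPKM ranked 62nd of the 70 P450 genes. On Control it ran from 0.786 through a median of 1.58 to 2.08 CPM, on Red from 0.695 through 1.39 to 2.20 CPM, and on Tangerine from 1.5 through 1.82 to 2.42 CPM. The Tangerine libraries began higher than in the other diets, yet only 3 of the 12 were above every Control library. Tangerine against Control gave a log2 difference of 0.22 (SE 0.136, 95% interval -0.05 to 0.50, adjusted p = 0.959 by edgeR's quasi-likelihood test). Tangerine against Red gave 0.35 (SE 0.137, 95% interval 0.07 to 0.63, adjusted p = 0.197 by the same edgeR test), where the Red median was exceeded in 12 of 12 mice on Tangerine, and Red against Control gave -0.13 (adjusted p = 0.739, edgeR). None of these passed. The Cyp1a1 and Cyp1a2 intervals for Tangerine against Control overlap.

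The 2 genes are paralogs, and their exons share stretches of up to 137 bases. Of the 50-base words in Cyp1a1 exons, 3.43% also occur in Cyp1a2. How reads that match both were counted is not given in the sources used here, and their part in the small Cyp1a1 count was not tested, so its values are uncertain. For each Cyp1a1 count there were 210.9 to 361.2 Cyp1a2 counts on Control (median 250.5), 196.3 to 424.5 on Red (median 300.3) and 221.3 to 460.0 on Tangerine (median 326.4). The spans overlap throughout. The log2 of this ratio was 0.29 higher on Tangerine than on Control (two-sided permutation test, p = 0.00602, adjusted over 3 comparisons 0.0181). It was 0.24 higher on Red than on Control (p = 0.0394, adjusted 0.0591, permutation test) and 0.06 higher on Tangerine than on Red (p = 0.663, adjusted 0.663, permutation test). This ratio was tested after the levels were seen.

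Across mice of 1 diet the pair moved together most clearly on Control, where r was 0.913 (n = 12, two-sided permutation p = 6e-05, adjusted over 24 relations 0.00144) and rho was 0.888 (permutation p = 0.00042, adjusted 0.0101). Without the 2 libraries farthest from the median it was 0.883. On Red r was 0.603 (adjusted p = 0.35, permutation test, n = 12; rho 0.441) and on Tangerine 0.221 (adjusted p = 0.752, permutation test, n = 12; rho 0.168). These 2 did not pass, and whether the relation differs between diets was not tested. Both values of a library share its depth and scaling.

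Ahr, the receptor itself, had no diet difference that passed. Its level was 37.2 ± 11.9 CPM on Control (lowest 23.1, median 36.5, highest 57.5), 34.1 ± 8.01 on Red (22.3, 32.9, 52.2) and 36.3 ± 10.2 on Tangerine (22.3, 39.7, 51.1; SD, n = 12 each). The 3 spans lie on top of each other, and mice of 1 diet differed more than 2-fold. The 95% interval of the log2 difference was -0.45 to 0.20 for Red against Control, -0.36 to 0.29 for Tangerine against Control and -0.23 to 0.42 for Tangerine against Red. The adjusted p-values of edgeR's quasi-likelihood test were 0.774, 1 and 0.835. A change of the size measured for Cyp1a2 lies outside the Tangerine intervals, while smaller changes of Ahr lie inside them.

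Arnt, the partner that Ahr needs to bind DNA, varied least between libraries among the 5 tested members. Its mean was 33.99 ± 4.85 CPM on Control, 35.0 ± 3.45 for Red and 34.7 ± 2.92 for Tangerine (SD, n = 12 each), with a lowest value of 25.2 and a highest of 40.8 over all 36 libraries. Its coefficients of variation were 14.3%, 9.84% and 8.39%, against 31.9%, 23.5% and 28.1% for Ahr. All 3 intervals for Arnt lay within -0.15 and 0.18, and the adjusted p-values of edgeR's quasi-likelihood test were 0.822, 1 and 0.951. Within a diet, Ahr and Arnt had no relation that passed (r of -0.068, -0.395 and -0.343 on Control, Red and Tangerine, n = 12 each, permutation test).

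Neither receptor subunit had a relation with Cyp1a2 from mouse to mouse that passed. Within Control, Red and Tangerine, r between Cyp1a2 and Ahr was -0.237, 0.125 and -0.029, between Cyp1a2 and Arnt -0.472, -0.150 and -0.208, and between Cyp1a2 and Tiparp -0.461, -0.020 and -0.370 (n = 12 each). None passed after adjustment over 24 relations in two-sided permutation tests, for r or for rho. The relations of Ahr with Arnt and with Tiparp were added after the data were seen.

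**Figure D3:**
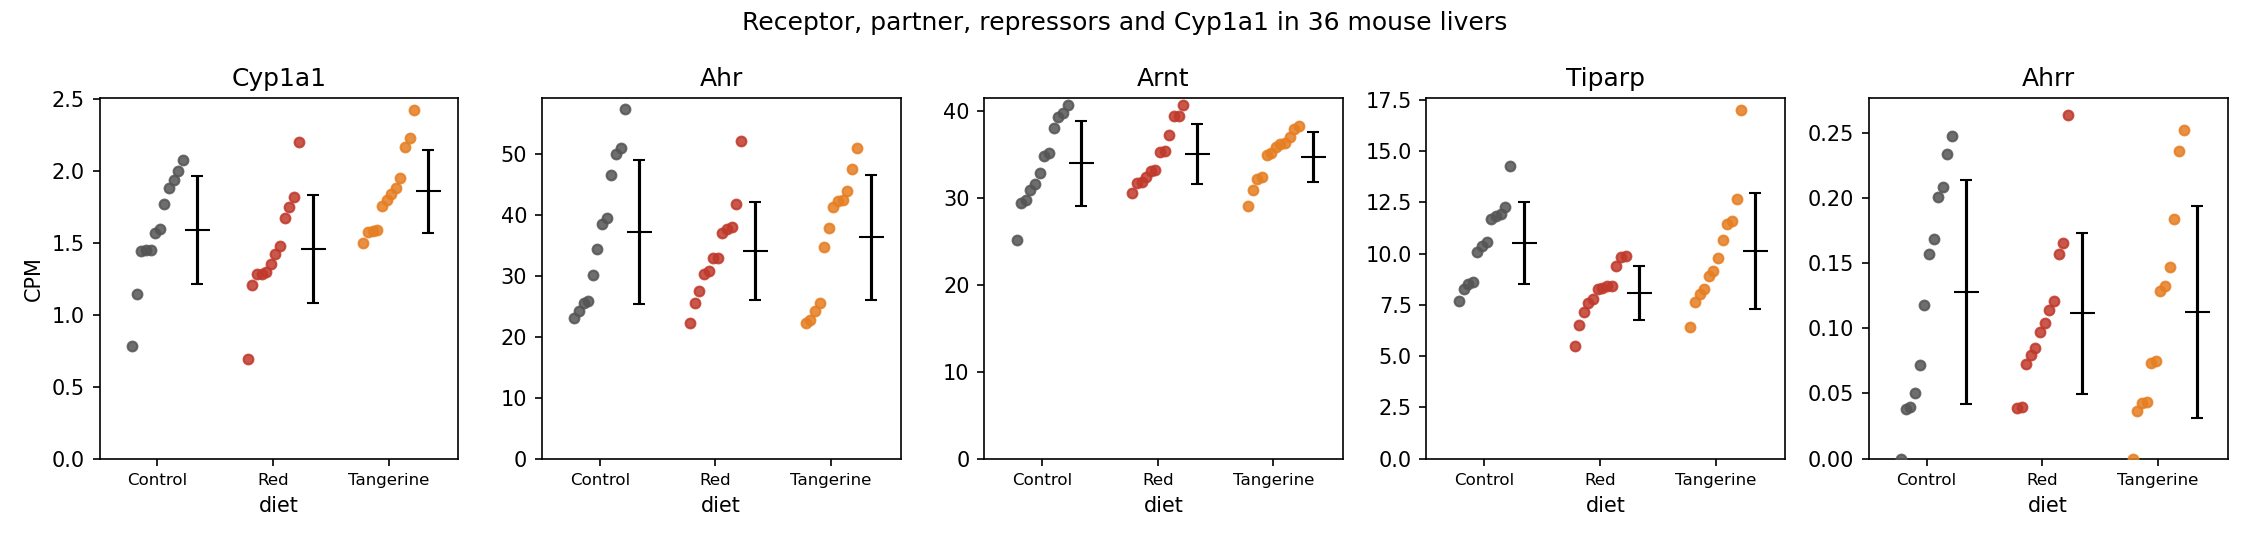
Levels of the other members in each library (points, CPM, sorted within diet, own scale per panel) with mean and SD over 12 libraries per diet. Ahr and Arnt overlap fully between diets, Tiparp lies lower on Red (mean 8.10) than on Control (10.5), and Ahrr is at or near the floor of 3 counts.

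Tiparp, an ADP-ribosyltransferase that marks the receptor for loss, had its lowest levels on Red. It ran from 7.71 through a median of 10.5 to 14.3 CPM on Control, from 5.47 through 8.31 to 9.90 on Red, and from 6.41 through 9.46 to 17.0 on Tangerine. All 12 Red libraries were below the Control median, and 4 were below every Control library. Red against Control gave a log2 difference of -0.38 (SE 0.121, 95% interval -0.62 to -0.13) with an unadjusted p of 0.0034, which missed the threshold after adjustment (adjusted p = 0.147, edgeR quasi-likelihood test; DESeq2 0.0985). Tangerine against Red gave 0.32 (SE 0.121, adjusted p = 0.177, edgeR), where 8 of 12 mice on Tangerine exceeded the Red median, and Tangerine against Control gave -0.05 (adjusted p = 1, edgeR). The highest Tangerine value, 17.0 CPM, came from mouse 160, which also had the lowest Cyp1a2 of its diet. Without that library Tangerine against Red was 0.23.

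The lowest mean was on Red for Tiparp and on Control for Cyp1a2. With the clock score as a covariate the Tiparp differences were -0.53 for Red against Control (adjusted p = 0.214, edgeR) and 0.52 for Tangerine against Red (adjusted p = 0.196, edgeR), neither of which passed. An antisense pseudogene, 4931440P22Rik, overlaps Tiparp, and the lincRNA Gm48236 overlaps Ahr on the opposite strand. They had 7.78 and 5.11 counts per library on average, against 260.6 for Tiparp and 983.2 for Ahr.

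Ahrr, the receptor's repressor that competes for ARNT, was barely detected. Its counts were 0 to 8 per library, with a mean of 3.42 on Control, 3.17 on Red and 3.17 on Tangerine, and 1 Control and 1 Tangerine library had none. A floor of 3 counts corresponds to 0.0846 to 0.15 CPM in these libraries, so the group means of 0.128, 0.112 and 0.113 CPM lie at that floor, and no fold change is given. Ahrr did not pass the filter on low counts. When all genes with at least 1 count were fitted, no Ahrr difference passed (adjusted p of 0.897 for Red against Control by edgeR, and 1 for both comparisons of Tangerine), and a difference was not detectable at this depth.

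**Figure D4:**
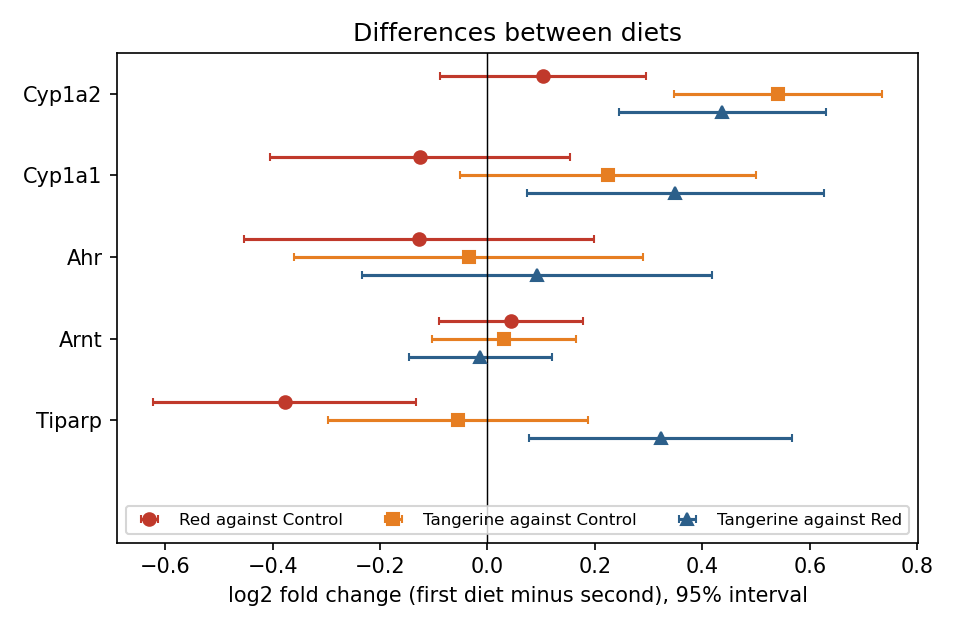
Log2 fold changes (points) with 95% intervals (lines) of the 5 tested members for Red against Control, Tangerine against Control and Tangerine against Red. Both Cyp1a2 intervals for Tangerine lie above 0 and those of Ahr and Arnt cross it, while the Tiparp interval for Red against Control lies below 0 although its adjusted p of 0.147 missed the threshold.

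Per length, the 6 genes spanned a wide range of levels. The means over 36 libraries were 234.2 FPKM for Cyp1a2, 5.82 for Ahr, 4.32 for Arnt, 2.20 for Tiparp, 0.587 for Cyp1a1 and 0.0124 for Ahrr. Cyp1a2 was 40.2 times as high as Ahr, and above it in all 36 libraries. Ahr and Arnt are neighbours in this order, and the mean of Ahr was 1.35 times that of Arnt. Their spans overlap, with Ahr from 3.62 to 9.32 FPKM and Arnt from 3.14 to 5.09. Ahr was the higher of the pair in 25 of 36 libraries, and their difference was not tested. Each other neighbouring pair kept its order in all 36 libraries. The receptor and its partner were present at similar levels in livers with abundant Cyp1a2 and very little Cyp1a1.

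**Figure D5:**
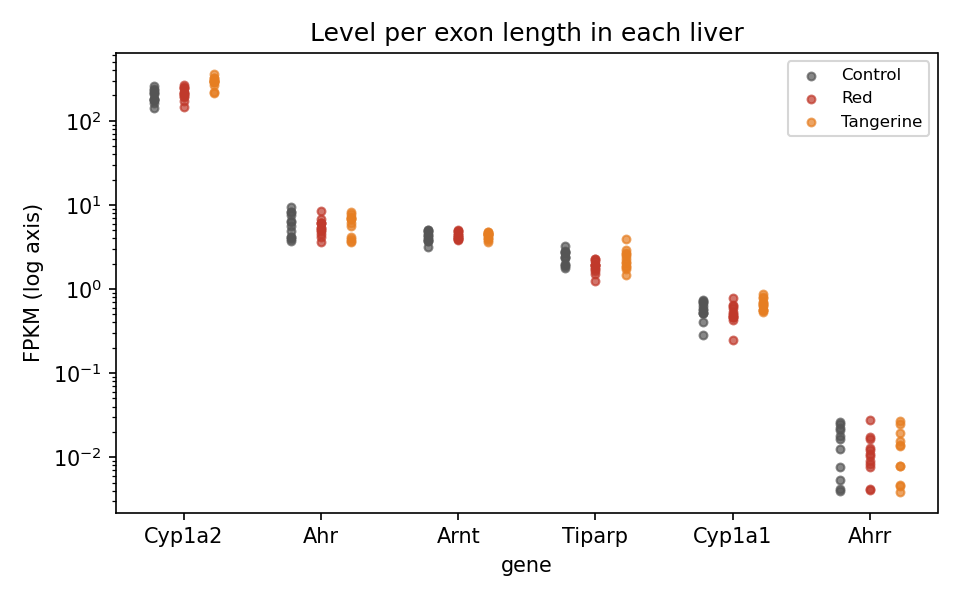
Level per kilobase of exon (FPKM, log axis) of the 6 genes in each of the 36 libraries, by diet. Cyp1a2 (mean 234.2) lies far above Ahr (5.82) and Arnt (4.32), whose ranges overlap, and 2 libraries in which Ahrr had 0 counts are not drawn.

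The genes whose levels followed Cyp1a2 most closely from library to library were Slc2a8, a sugar transporter, Pla1a, a phospholipase, Ahsg, the plasma protein fetuin-A, Gulo, the last enzyme of vitamin C synthesis, and Naglu, a lysosomal enzyme. Their Pearson's r with Cyp1a2 was 0.767, 0.762, 0.751, 0.713 and 0.708, over 36 libraries after the mean of each diet was subtracted, among 10968 genes compared. These values describe libraries that share depth and scaling, and carry no test. None of the 5 passed in Tangerine against Control, and Gulo passed in Tangerine against Red (0.25, adjusted p = 0.0237, edgeR). Genes averaging less than 1 on the log2 CPM scale were not compared, so Cyp1a1 could not appear among them. The closest to Cyp1a1 were Mug4-ps (0.697), Cyp27a1 (0.692) and C1ra (0.686). For Ahr they were Arhgef3 (0.852), Cep85l (0.834) and Hsf2 (0.832), and for Tiparp Rnf103 (0.674), Fam204a (0.657) and Elp4 (0.652). Among the closest to Arnt were Arhgef5 (0.778) and Ablim1 (0.747).

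The chaperones that hold the receptor in the cytosol gave no call. None of 5 tested chaperone genes passed in any comparison by edgeR or DESeq2, and none had an unadjusted p under 0.05. Their median log2 differences were 0.06, -0.04 and -0.04 for Red against Control, Tangerine against Control and Tangerine against Red, where the medians of all genes were -0.01, -0.01 and -0.01. In the same order, 0.149%, 0.0142% and 1.71% of all genes tested passed by edgeR. At an unadjusted p under 0.05 there were 13.3%, 5.47% and 15.1% of all genes, and these shares stand beside the lists below as well. Hsp90ab1, the main cytosolic HSP90, stood at 783.1, 819.7 and 798.9 CPM on Control, Red and Tangerine, and Hsp90aa1 at 70.1, 67.6 and 62.5. None of 9 coregulators passed by either tool (medians 0.04, -0.01 and -0.05; 0, 0 and 1 with an unadjusted p under 0.05). Ddb1, part of the ubiquitin ligase that the receptor can join, had 216.6, 218.4 and 224.3 CPM, and the coactivator Ncoa2 55.7, 56.4 and 59.4.

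Of 8 relatives with the same bHLH-PAS domain, 4 could be tested, and 3 of these, all clock genes, were lower on Tangerine than on Red. Npas2 fell by 2.51 (adjusted p = 0.0224), Arntl by 1.46 (adjusted p = 0.0464) and Clock by 0.46 (adjusted p = 0.0492) in edgeR's quasi-likelihood test. Epas1, a hypoxia factor that also pairs with ARNT, had 226, 202.9 and 212.6 CPM and did not pass, and Hif1a was listed at 0 in every library. How reads shared between genes were counted is not given in the sources used here, so a gene listed at 0 is not shown to be silent. The list's medians were 0.70, -0.26 and -0.96. Of the 10 tested clock genes, Dbp (1.84, adjusted p = 0.0289) and Nr1d2 (0.76, adjusted p = 0.0173) were higher on Tangerine than on Red by the edgeR test, and Cry1 was lower as were the 3 named above. All 6 clock gene calls, those of Npas2, Arntl and Clock included, were lost without mice 186 and 216, with the mouse number as a covariate and with the clock score, which is made from these genes. No clock gene passed in Tangerine against Control, where 0 had an unadjusted p under 0.05 and DESeq2 called 0. Red against Control had no clock gene past the threshold by edgeR, 1 lower by DESeq2, and 9 of 10 with an unadjusted p under 0.05 (13.3% of all genes). In Tangerine against Red 9 of 10 had an unadjusted p under 0.05 (15.1% of all genes), and DESeq2 called 4 higher and 4 lower. The clock list had medians of -0.19, -0.07 and 0.42.

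Of 14 other genes known as receptor targets 8 were tested and 1 passed, in Tangerine against Red. The list's medians were -0.03, 0.07 and 0.06. Slc46a3, a lysosomal transporter, was at 40.9 ± 5.48 CPM on Control, 36.8 ± 4.11 on Red and 51.7 ± 13.2 on Tangerine (SD, n = 12 each). It rose by 0.49 on Tangerine against Red (SE 0.104, adjusted p = 0.0146, edgeR; 10 of 12 libraries above the Red median), and against Control the difference was 0.34 (adjusted p = 0.587, edgeR). The Slc46a3 call was lost with the mouse number or the clock score as a covariate. Nqo1, a quinone reductase, stood at 3.24, 3.19 and 3.40 CPM, and Gsta1, a glutathione transferase, at 0.941, 1.46 and 1.46 (Tangerine against Control 0.64, adjusted p = 0.816, edgeR). Cyp1b1, the third Cyp1 enzyme, was too low to test at 0.300, 0.297 and 0.214 CPM, and Ugt1a6a and Ugt1a6b, which share exons with other Ugt1a genes, were listed at 0 in every library, with the same limit as for Hif1a.

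Enzymes of tryptophan breakdown, a source of receptor ligands, did not pass in any comparison. Of 12 genes 9 were tested and 0 called by edgeR or DESeq2, with 1, 0 and 2 at an unadjusted p under 0.05 and medians of -0.05, 0.07 and 0.03. Tdo2, which opens the tryptophan ring, had 1459, 1194 and 1443 CPM on Control, Red and Tangerine, and Haao 541.7, 503.7 and 508.2. Of 11 liver transcription factors 1 passed. Cebpa, a hepatocyte factor, was 0.31 higher on Tangerine than on Red (adjusted p = 0.0452, edgeR), and the list's medians were -0.07, 0.07 and 0.06. The Cebpa call was lost without mice 186 and 216, with the mouse number and with the clock score.

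Cyp1a2 belongs to the hepatocytes around the central vein, so other zonal genes were set beside it. Of 13 tested pericentral genes 0 passed in either comparison with Control by edgeR or DESeq2. Of all genes, only 0.149% passed by edgeR in Red against Control and 0.0142% in Tangerine against Control. At an unadjusted p under 0.05 there were 3 of 13 in each, where all genes had 13.3% and 5.47%. In Tangerine against Red there were 6 of 13 (15.1% of all genes), and 3 passed as higher on Tangerine (0.732% of all genes). These were Prodh, which breaks down proline (0.56, adjusted p = 0.00909), Lect2, a secreted protein (0.36, adjusted p = 0.00564), and Gulo (0.25, adjusted p = 0.0237, all edgeR). Medians were -0.11, 0.12 and 0.22. Glul, the strictest marker of the innermost cells, had 621.9, 578.4 and 612.9 CPM. Among 10 periportal genes, from the opposite end of the lobule, Arg1 fell by 0.38 on Red against Control (adjusted p = 0.0167, edgeR), and Arg1 (0.31, adjusted p = 0.0251) and Cps1 (0.40, adjusted p = 0.0446) were higher on Tangerine than on Red, with medians of -0.21, -0.05 and 0.21. In Tangerine against Red both periportal calls were lost without mice 186 and 216 and with the mouse number, while 3 pericentral genes passed without those mice and 2 with the mouse number. With the clock score as a covariate none of 14068 genes passed in that comparison by edgeR, with 1692 at an unadjusted p under 0.05, and Arg1 did not pass in Red against Control.

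Markers of other cell types gave no call beside Cyp1a2 in Tangerine against Control. There, 0 genes of the 9 marker lists passed by edgeR or DESeq2, and 2 had an unadjusted p under 0.05. Of all genes, 0.0142% passed by edgeR and 5.47% had an unadjusted p under 0.05, so the lack of a call says little about these lists. The exocrine pancreas list had 0 genes tested. Summed medians on Control, Red and Tangerine were 121600, 115700 and 115100 CPM for hepatocytes, 172.8, 192.8 and 175.9 for Kupffer cells, 174.9, 174.5 and 176.0 for sinusoidal endothelium and 202.0, 184.0 and 200.5 for stellate cells. They were 18.5, 19.9 and 20.8 for cholangiocytes, 2.27, 2.87 and 2.90 for T and B cells, 4026, 4021 and 3837 for the adipose list, most of which is Car3, a gene that liver also makes, and 203.7, 245.8 and 226.8 for red blood cells. The exocrine pancreas list had medians of 0, 0 and 0.0169 CPM. In Tangerine against Red, the T cell genes Lck and Trbc2 passed as lower by edgeR but not by DESeq2 nor without mice 186 and 216, and of the hepatocyte markers Cps1 was higher and Fgb lower.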

How the data were processed

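The authors deposited raw counts per gene for 36 liver libraries in 1 table without normalization, per the file header and its whole-number values. Libraries were made with the NEXTflex Rapid Directional kit, per the labels' protocols. FastQC, Trimmomatic, edgeR and the build GRCm38.p6 are listed, per the submitters' processing notes, with no role or order. The aligner, the counting program, the annotation release and the strand setting are not given in the sources used here.

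The 6 members and all gene lists were chosen with earlier results of these data known. Symbols and positions came from GENCODE release M21 by Ensembl identifier without its version (53620 of 53715 identifiers), and promoters from RefSeq. Low counts were removed by filterByExpr in edgeR 4.0.16 (count 10, total 15, share 0.7 beyond 10 libraries), which kept 14068. All 36 libraries were scaled by TMM and fitted together with edgeR's robust quasi-likelihood test, no covariates, and Benjamini-Hochberg adjustment within each comparison at 0.05. The script was tested on simulated data. CPM used TMM library sizes, log2 CPM a prior count of 2, and FPKM is CPM divided by exon length. Intervals of 95% came from the F statistic. P-values measure the spread between these 12 libraries per diet. The floor of 3 counts covers counting error only.

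Named were the members, each gene of 9 pathway lists that passed and otherwise the 2 most abundant of a list, and the 5 or 3 genes most like a member among those averaging at least 1 on the log2 CPM scale. 1 gene of that last kind is not reported here. Epas1, Nqo1, Gsta1, Cyp1b1, Glul, the genes listed at 0, the marker genes and the other P450 genes were named outside that rule, after their values were seen. Relations used two-sided permutation tests (100000 resamples, scipy 1.17.1). Alternatives were DESeq2 1.42.0 size factors and test, no filter, the clock score (68.7% of the variance of its 10 genes) or mouse number as covariate, only the 2 diets compared, and leaving out each library. Leaving out mice 186 and 216 together was added after seeing the data.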

Additional observations from a re-analysis of the deposited data

Results flagged for a closer look

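The response of Cyp1a2 to the diets differed between the powders in the fit without covariates. Tangerine minus Red was 0.437 on the log2 scale (SE 0.0952, adjusted p = 0.0155 by edgeR's quasi-likelihood test with Benjamini-Hochberg adjustment). This is the comparison of the 2 tomato diets already given above, in which the Control level cancels. It did not pass in the same test with the clock score (0.257, adjusted p = 0.368) or the mouse number (0.381, adjusted p = 0.0539) as a covariate. All 12 Tangerine libraries lay above the Red median.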

How the results depend on the processing

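Cyp1a2 on Tangerine kept its direction in all alternatives, and its call in all that left out 1 library: 0.503 to 0.582 against Control (adjusted p 0.00303 to 0.0385) and 0.396 to 0.471 against Red (adjusted p 0.00791 to 0.0332, edgeR). The call was lost with the mouse number as covariate (0.484 against Control, 0.381 against Red) and, against Red, with the clock score (0.257), and the cause was not tested. With the clock score 4 differences that had not passed changed sign: Cyp1a1 Red against Control 0.009, Ahr Red against Control 0.03, Ahr Tangerine against Red -0.112 and Arnt Tangerine against Red 0.025. Leaving out 1 library changed the sign of Ahr (-0.089 to 0.038) and Arnt (-0.003 to 0.057) in Tangerine against Control and of Arnt in Tangerine against Red (-0.03 to 0.008). None of these passed. All other values of the members kept their direction and their side of the threshold. Genes past the threshold in Red against Control were 21, but 158 with DESeq2, 4 with the clock score, 53 without mice 186 and 216, and 13 (without mouse 166) to 127 (without Control mouse 189) when 1 library was left out. In Tangerine against Control they were 2, with 7 by DESeq2, 1 with the mouse number and 2 to 4 when 1 library was left out. In Tangerine against Red they were 241, with 136 without the filter, 383 by DESeq2, 0 with the clock score (1692 at an unadjusted p under 0.05), 32 with the mouse number, 86 without mice 186 and 216, and 89 (without Tangerine mouse 216) to 301 (without Control mouse 137) when 1 library was left out. No paired analysis was possible because no mouse number occurred in more than 1 diet. Depth limits Ahrr, at 0 to 8 counts, and Cyp1a1, at 20 to 78.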
